A study of Mus musculus with 18 samples.

Results

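Grade 3 lung tumours were compared with grade 2 lung tumours in mice that had not received tamoxifen, the state in which p53 had not been restored. Tumours were taken where the titles say untreated and give the grade, which selected 4 grade 3 and 4 grade 2 tumours, 8 of the 18 tumours of the series. The labels call the grade 3 tumours adenocarcinomas and the grade 2 tumours adenomas. Every one of the 8 was microdissected from the lung of a male C57/B6-129SvJae mouse at 10 weeks of age, and none of these mice received tamoxifen. The grade 3 tumours were 8584T3, 8565T1, 8629T10 and 8629T12, and the grade 2 tumours were 8700T1, 8700T3, 8565T3 and 8565T4, where the first digits number the mouse. The remaining tumours, 6 of grade 3 and 4 of grade 2, came from mice given tamoxifen in 2 injections, with p53 restored per the labels, and were collected 7 days after the first injection. The labels name neither the alleles that started the tumours nor those that held p53 off, and no tumour-free lung was analysed here.

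In mouse models of lung adenocarcinoma, tumours commonly start in cells of the distal airspace that resemble alveolar type 2 cells, which make surfactant. p53 is a transcription factor that stops the cell cycle or kills the cell when it is activated, for example by the protein ARF, the product of Cdkn2a, in cells with strong oncogenic signalling. Progression from adenoma to adenocarcinoma in this tissue is known for larger nuclei and more mitoses, for loss of alveolar markers and for the appearance of genes of the gut, stomach and embryo.

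RNA was amplified from 100 ng per tumour and hybridised to single-colour arrays, and values are log2 signals as the authors deposited them. Array medians of the 8 tumours ran from 6.08 to 6.18, and the number of arrays limits the precision. Pairs of tumours correlated at 0.973 to 0.995 over 12393 genes, each read from 1 probe set. The gap between 3′ and 5′ probe sets of 2 control transcripts, which widens as RNA degrades, was 0.621 to 0.808 in grade 3 and 0.768 to 1.05 in grade 2 tumours. The mean of 28 listed markers of alveolar type 2 cells was high in every tumour. It lay between 11.15 and 11.67 in grade 3 and between 11.46 and 11.91 in grade 2. Not every marker of the list was high: the lowest had means of 5.70 in grade 3 and 6.49 in grade 2. Nkx2-1, the lineage regulator of lung epithelium, is not in that list. Its probe set lay below the array median in all 8 tumours, between 3.33 and 4.26, and was not tested. The 8 tumours came from 4 mice, 3 with grade 3 tumours and 2 with grade 2 tumours, and only mouse 8565 gave both. Tumours of a mouse are not independent, so p-values over tumours are too small, and grade cannot be told apart from animal except within mouse 8565.

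Of 7300 genes tested with limma, 13 passed an adjusted p of 0.05 (0.178%), 11 of them higher (0.151%) and 2 lower in grade 3 (0.0274%). The genes that rose were Hnf4a, Muc5b, Afp, Lgals4, Mcpt2, Cd177, Fxyd4, Sdcbp2, Vsig2, Tmem54 and Mat1a, and the genes that fell were Fbln1 and Tgfb2. In each of the 13 the 4 grade 3 tumours lay on one side of the 4 grade 2 tumours, a pattern shown by 6.45% of all genes tested (3.42% with grade 3 higher and 3.03% with grade 3 lower). Genes said below not to overlap are to be read beside these shares. Within mouse 8565, the 11 genes that rose were higher in its grade 3 tumour than in the mean of its 2 grade 2 tumours. Both genes that fell were lower. With no overlap between the grades, these directions were fixed in advance and give no further support. The median difference over all 7300 genes was 0.00. At an unadjusted p under 0.05 there were 421 genes higher (5.77%) and 489 lower (6.7%). The grade 2 means of Muc5b, Hnf4a, Sdcbp2, Tmem54, Cd177, Mcpt2 and Mat1a and the grade 3 mean of Fbln1 lay below the array medians. At such signals the array resolves levels poorly, and the log2 differences of these genes give no exact size. All 13 calls were lost with the mouse as the unit: 0 genes passed with 1 mean per mouse and group (468 at an unadjusted p under 0.05) or with mouse as a fixed block (183), and 2 with only the 8 untreated tumours in the fit. The number that passed also depended on the tumours and mice included: it was 0 without mouse 8700 (513 at an unadjusted p under 0.05), 3 without mouse 8629 and 6 without mouse 8565, and between 2 (without 8565T4) and 98 (without 8565T1) when 1 tumour was left out.

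**Figure D1:**
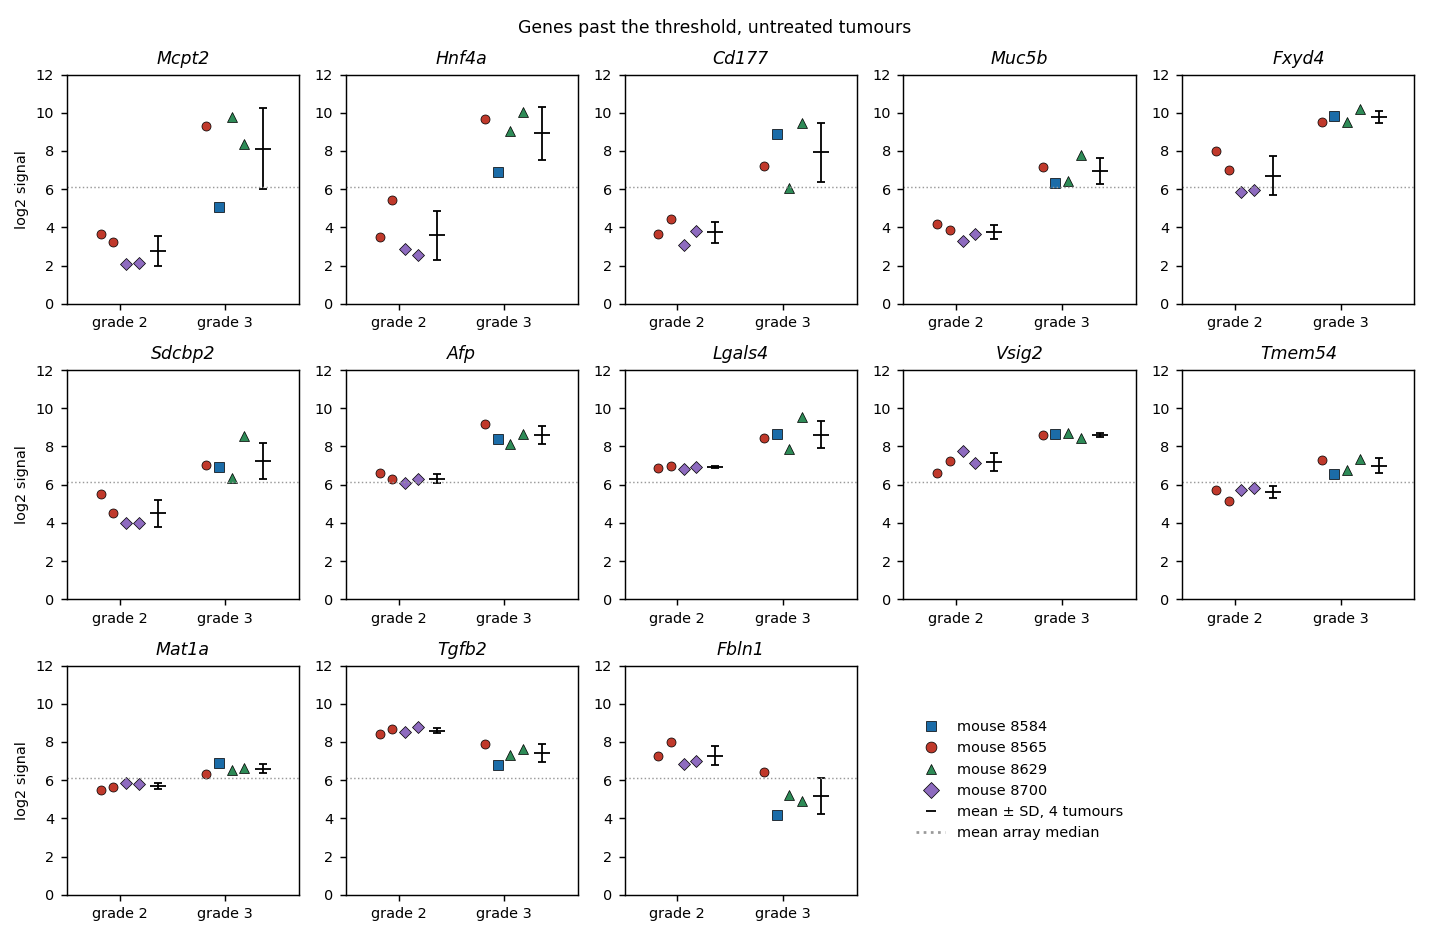
Log2 signal (vertical axis, 0 to 12) of the 13 genes that passed, 1 panel per gene, in 4 grade 2 and 4 grade 3 untreated tumours, with shape and colour for the mouse. Bars are mean ± SD over 4 tumours and the dotted line is the mean array median; in every panel the 2 grades are apart, and for Muc5b, Hnf4a, Sdcbp2, Tmem54, Cd177, Mcpt2 and Mat1a the grade 2 mean lies below that line.

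The list with the most genes that passed was one of gut, stomach, liver and embryonic genes. Hnf4a encodes a nuclear receptor that directs liver and intestinal differentiation. Its log2 signal was 6.91 in 8584T3, 9.69 in 8565T1, 9.02 in 8629T10 and 10.03 in 8629T12, against 2.85 in 8700T1, 2.53 in 8700T3, 3.49 in 8565T3 and 5.43 in 8565T4. The grade 3 tumour 8584T3 was the lowest of its group and the grade 2 tumour 8565T4 the highest of its own, and the grades did not overlap. Hnf4a rose by 5.26 on the log2 scale (SE 0.81, limma adjusted p = 0.0112), and the difference within mouse 8565 was 5.23. A second probe set of Hnf4a differed by 3.58, while its other 2 probe sets, near the bottom of the scale, differed by 0.81 and 0.16.

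Muc5b encodes a gel-forming mucin of airway and gland secretions. Its signals were 6.34, 7.16, 6.44 and 7.79 in the grade 3 tumours 8584T3, 8565T1, 8629T10 and 8629T12, and 3.30, 3.65, 4.17 and 3.83 in the grade 2 tumours 8700T1, 8700T3, 8565T3 and 8565T4. All grade 3 tumours lay above their array medians and all grade 2 tumours well below. Muc5b rose by 3.17 (SE 0.41, limma adjusted p = 0.00357), the smallest adjusted p of all genes, and by 3.15 within mouse 8565. Muc5b and Hnf4a were the 2 genes that still passed when any 1 tumour was left out, but Muc5b did not pass without mouse 8565 or 8700, and Hnf4a without mouse 8565, 8629 or 8700 (limma adjusted p up to 0.131 and 0.241).

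Afp encodes alpha-fetoprotein, the main serum protein of the yolk sac and fetal liver. In the same order its signals were 8.39, 9.20, 8.11 and 8.65 in grade 3 and 6.08, 6.32, 6.60 and 6.29 in grade 2. The grade 2 tumours sat close to the array median and the grade 3 tumours clearly above it. Afp rose 5.13-fold (log2 difference 2.36, SE 0.37, limma adjusted p = 0.0112), and by 2.75 on the log2 scale within mouse 8565. Of 4 further Afp probe sets, 3 were also higher in grade 3, by 1.57, 1.68 and 0.59, and the other one differed by -0.10. The probe sets with 0.59 (means 2.65 and 2.12) and -0.10 (means 2.31 and 2.39) both lay at the bottom of the scale.

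Lgals4 encodes galectin-4, a carbohydrate-binding protein of the intestinal epithelium. Its signals were 8.66, 8.42, 7.87 and 9.53 in grade 3 and 6.84, 6.93, 6.89 and 6.99 in grade 2. The grade 2 tumours were tightly grouped with a mean of 6.91 ± 0.07 (SD, n = 4), against 8.62 ± 0.69 (SD, n = 4) in grade 3. Lgals4 rose 3.17-fold (log2 difference 1.66, SE 0.26, limma adjusted p = 0.0112). The calls of Afp and Lgals4 were lost without 8565T4, that of Afp also without mouse 8565, 8629 or 8700 (limma adjusted p up to 0.279) and that of Lgals4 without mouse 8565 or 8700 (up to 0.241). In either gene the difference stayed above 1.4 on the log2 scale whichever tumour or mouse was left out.

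Promoters are shown for Hnf4a, which is itself a transcription factor, and for the other genes that passed and held a match to a searched motif, Afp, Sdcbp2 and Cd177. Promoter entries of RefSeq (GRCm38.p6) were at hand for 9 of the 13 genes, 12 entries in all. The 250 bases before each start site are given 5′ to 3′ on the gene's strand. Capitals mark a match to 1 of 4 motifs, searched on both strands and chosen once the genes that passed were known. The Afp window is chr5:90490464-90490713 on the plus strand and the 2 Hnf4a windows are chr2:163506607-163506856 and chr2:163546905-163547154, both on the plus strand. The Sdcbp2 window is chr2:151572373-151572622 on the plus strand and the Cd177 window is chr7:24760312-24760561 on the minus strand.
Afp promoter: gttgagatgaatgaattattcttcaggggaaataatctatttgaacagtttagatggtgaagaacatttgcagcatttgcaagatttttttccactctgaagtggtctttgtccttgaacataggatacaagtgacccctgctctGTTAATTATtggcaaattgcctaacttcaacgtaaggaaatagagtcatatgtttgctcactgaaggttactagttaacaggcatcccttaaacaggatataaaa
Hnf4a promoter, upstream start: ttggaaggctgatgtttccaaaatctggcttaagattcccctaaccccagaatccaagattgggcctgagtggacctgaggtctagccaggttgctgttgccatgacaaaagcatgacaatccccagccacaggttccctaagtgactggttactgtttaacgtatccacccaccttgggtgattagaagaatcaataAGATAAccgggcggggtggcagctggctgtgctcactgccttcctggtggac
Hnf4a promoter, downstream start: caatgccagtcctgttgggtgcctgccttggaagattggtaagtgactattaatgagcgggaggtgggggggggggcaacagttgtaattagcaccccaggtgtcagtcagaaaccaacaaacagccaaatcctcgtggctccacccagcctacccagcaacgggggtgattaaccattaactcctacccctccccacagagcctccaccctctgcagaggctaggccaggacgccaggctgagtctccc
Sdcbp2 promoter: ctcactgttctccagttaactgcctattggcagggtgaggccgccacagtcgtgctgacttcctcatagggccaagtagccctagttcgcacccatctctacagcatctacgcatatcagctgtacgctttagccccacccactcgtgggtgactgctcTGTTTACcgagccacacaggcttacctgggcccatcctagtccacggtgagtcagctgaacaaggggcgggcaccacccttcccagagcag
Cd177 promoter: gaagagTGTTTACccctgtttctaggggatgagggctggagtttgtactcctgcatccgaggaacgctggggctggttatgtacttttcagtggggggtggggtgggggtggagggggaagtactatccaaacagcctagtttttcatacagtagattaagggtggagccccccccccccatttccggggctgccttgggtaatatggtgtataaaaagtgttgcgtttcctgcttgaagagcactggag

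The Afp window held the HNF1 letters GTTAATNAT at position -105 from the start site, a match present in 0.737% of 32851 promoter windows of that length. The upstream Hnf4a window held the GATA letters AGATAA at -52, which 9.99% of windows hold, and the downstream window held none of the 4 motifs. The forkhead letters TGTTTAC stood at -91 in Sdcbp2 and at -244 in Cd177, and in 3.17% of all windows. The HNF4 letters CAAAGTCCA, found in 0.384% of windows, matched none of the windows of the 9 genes. Fbln1, Fxyd4, Lgals4, Tgfb2 and Tmem54, the other genes with an entry, held none of the 4 motifs. A match describes the letters of the window and is no evidence of binding.

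Of the 40 genes of the gut and embryonic list on the array, 13 reached the signal filter. Of those, 4 passed, all higher (0.151% of all genes tested were called higher), and the median of the 13 was 1.66 against 0.00 over all genes. A gene silent in grade 2 could reach the filter only through tumours in which it was high, so this count and median describe the tested members and do not support a shift of the list. Several members had large differences that did not pass. Cldn2, a pore-forming claudin of leaky epithelia such as gut, was 8.97, 8.89, 9.58 and 9.47 in grade 3 and 7.67, 7.58, 8.50 and 8.54 in grade 2, with a difference of 1.0 (limma adjusted p = 0.151). Hmga2, an embryonic chromatin protein known as a marker of advanced lung tumours, was 7.36, 6.42, 6.39 and 7.22 in grade 3 and 5.10, 5.46, 6.03 and 5.88 in grade 2, with 1.11 (SE 0.39, limma adjusted p = 0.264). In both genes the grades did not overlap, and the grade 2 tumours of mouse 8565 lay nearer to grade 3 than those of mouse 8700.

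In 4 genes that were singled out after their values were seen, mouse 8565 also lay apart from mouse 8700 within grade 2. Gkn2, a gastric gastrokine, was 10.27, 11.29, 10.64 and 8.82 in grade 3, and 9.05 and 9.60 in the grade 2 tumours 8565T3 and 8565T4, but 3.71 and 4.35 in 8700T1 and 8700T3, so the grade 2 tumours of mouse 8565 lay inside the grade 3 range. Dlk1, a membrane ligand of embryonic tissues, was 11.25, 7.17, 11.16 and 12.12 in grade 3, 7.02 and 6.90 in the grade 2 tumours of mouse 8565, and 3.69 and 3.17 in mouse 8700. Whether these gaps within grade 2 were differences between mice or between single tumours was not tested. The fitted differences were 3.36 for Gkn2 and 4.34 for Dlk1 (limma adjusted p = 0.241 and 0.206), and within mouse 8565 they were 1.96 and 0.21. Ctse, the gastric protease cathepsin E, had 2.25 (limma adjusted p = 0.190) and 0.51 within mouse 8565. Gzme, which encodes a granzyme, was 6.83, 8.56, 11.23 and 10.37 in grade 3 and 1.99, 2.02, 3.77 and 5.44 in grade 2 (limma adjusted p = 0.116), with every grade 2 tumour below the array median, so that its difference has no exact size.

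The 27 untested members of the list were mostly silent: 23 were above the array median in none of the 8 untreated tumours. Among the 27, Tff1, Muc5ac, Krt20 and Apoc2 were higher in each grade 3 than in each grade 2 tumour. None was lower in this sense. Of all genes tested, 3.42% were higher and 3.03% lower in this sense, a share that leaves out untested genes such as these. Muc5ac and Krt20, with grade 3 means of 3.99 and 3.85, were above the array median in none of the 8 untreated tumours. Tff1, a trefoil peptide of stomach mucus, had a mean of 6.78 ± 2.69 (SD, n = 4) in grade 3 and 3.44 ± 0.25 (SD, n = 4) in grade 2. Apoc2, a lipoprotein component made by liver and gut, had 6.15 ± 0.92 (SD, n = 4) and 4.34 ± 0.11 (SD, n = 4). The intestinal master regulator Cdx2 stayed at 2.69 ± 0.11 (SD, n = 4) in grade 3 and 2.77 ± 0.09 (SD, n = 4) in grade 2, and the pancreatic and duodenal regulator Pdx1 at 3.11 ± 0.20 (SD, n = 4) and 2.93 ± 0.12 (SD, n = 4), all near the bottom of the scale. The mean over all 40 genes was 5.01 to 5.48 in grade 3 and 3.94 to 4.47 in grade 2 tumours, highest in 8629T12 and lowest in 8700T1.

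Outside the list, 7 further genes rose. Fxyd4 encodes a small membrane regulator of the sodium pump, with signals of 9.82, 9.54, 9.50 and 10.21 in grade 3 and 5.83, 5.95, 8.0 and 7.00 in grade 2. The grade 2 tumours of mouse 8565 again lay above those of mouse 8700. Fxyd4 rose by 2.90 (SE 0.55, limma adjusted p = 0.0330). Vsig2, a membrane protein of the immunoglobulin family, was 8.64, 8.60, 8.72 and 8.45 in grade 3 and 7.78, 7.12, 6.60 and 7.22 in grade 2. It was nearly constant in grade 3, at 8.60 ± 0.11 (SD, n = 4), and rose 2.77-fold (log2 difference 1.47, SE 0.25, limma adjusted p = 0.0206).

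Sdcbp2 encodes syntenin-2, a scaffold protein that binds membrane phosphoinositides. It was 6.92, 7.05, 6.35 and 8.55 in grade 3 and 3.99, 3.98, 5.50 and 4.53 in grade 2, a rise of 2.59 (SE 0.42, limma adjusted p = 0.0135). Tmem54, a membrane protein, was 6.56, 7.27, 6.75 and 7.35 against 5.73, 5.82, 5.74 and 5.15, a rise of 1.44 (SE 0.27, limma adjusted p = 0.0330). Mat1a encodes the liver form of the enzyme that makes S-adenosylmethionine, the methyl donor of the cell. Its signals of 6.92, 6.33, 6.55 and 6.62 in grade 3 and 5.84, 5.81, 5.48 and 5.66 in grade 2 made it the smallest rise, at 0.89 (SE 0.16, limma adjusted p = 0.0248), with the grade 2 tumours just below the array median. Leaving out 8565T4 ended the call of each of Fxyd4, Vsig2, Sdcbp2, Tmem54 and Mat1a, and leaving out 8700T3 did so too. Further calls were lost without 8565T3 (Vsig2, Tmem54, Mat1a), 8700T1 or 8629T12 (Fxyd4, Tmem54, Mat1a) or 8565T1 (Tmem54).

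Mcpt2, a mast cell protease, and Cd177, a surface glycoprotein known from neutrophils, had wide spreads in grade 3. Mcpt2 was 5.06 in 8584T3, below that tumour's array median, but 9.28, 9.75 and 8.34 in the other grade 3 tumours and 2.09, 2.15, 3.65 and 3.22 in grade 2. It rose, with a fitted difference of 5.31 (SE 1.04, limma adjusted p = 0.0449). Cd177 was 8.90, 7.21, 6.08 and 9.47 in grade 3 and 3.10, 3.79, 3.66 and 4.45 in grade 2, with a fitted difference of 4.03 (SE 0.78, limma adjusted p = 0.0418). All grade 2 tumours lay far below the array median in both genes, and 3 untreated tumours above it in each, so neither difference is an exact size. Other mast cell and neutrophil genes were mostly low in both grades: of 17 on the array 3 reached the filter, 0 passed (0.178% of all genes tested), and their mean signal was 3.91 to 4.44 in grade 3 and 3.78 to 4.17 in grade 2. The part of these cells in the 2 results was not tested. Leaving out 1 tumour ended the call of Mcpt2 for every tumour but 8584T3, and that of Cd177 for every tumour but 8565T1 and 8629T10.

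The genes that fell were secreted factors. Fbln1 encodes fibulin-1, a glycoprotein of the extracellular matrix. It was 4.17, 6.44, 5.20 and 4.92 in the grade 3 tumours 8584T3, 8565T1, 8629T10 and 8629T12 and 6.85, 7.01, 7.25 and 7.98 in the grade 2 tumours 8700T1, 8700T3, 8565T3 and 8565T4, and it fell by 1.95 on the log2 scale (SE 0.35, limma adjusted p = 0.0248). Among grade 3 tumours only that of mouse 8565 was above the array median, and within this mouse the difference was -1.18. Tgfb2, a cytokine of the transforming growth factor beta family, was 6.80, 7.89, 7.32 and 7.65 in grade 3 and 8.52, 8.77, 8.44 and 8.66 in grade 2. It fell by 1.11 (SE 0.20, limma adjusted p = 0.0248), a 2.16-fold decrease, with -0.66 within mouse 8565. Its 2 further probe sets differed by -0.87 and -0.92, and a second Fbln1 probe set by -1.27. Leaving out 8700T3 or 8565T4 ended both calls, and leaving out 8629T12 ended that of Fbln1 and 8700T1 that of Tgfb2.

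**Figure D2:**
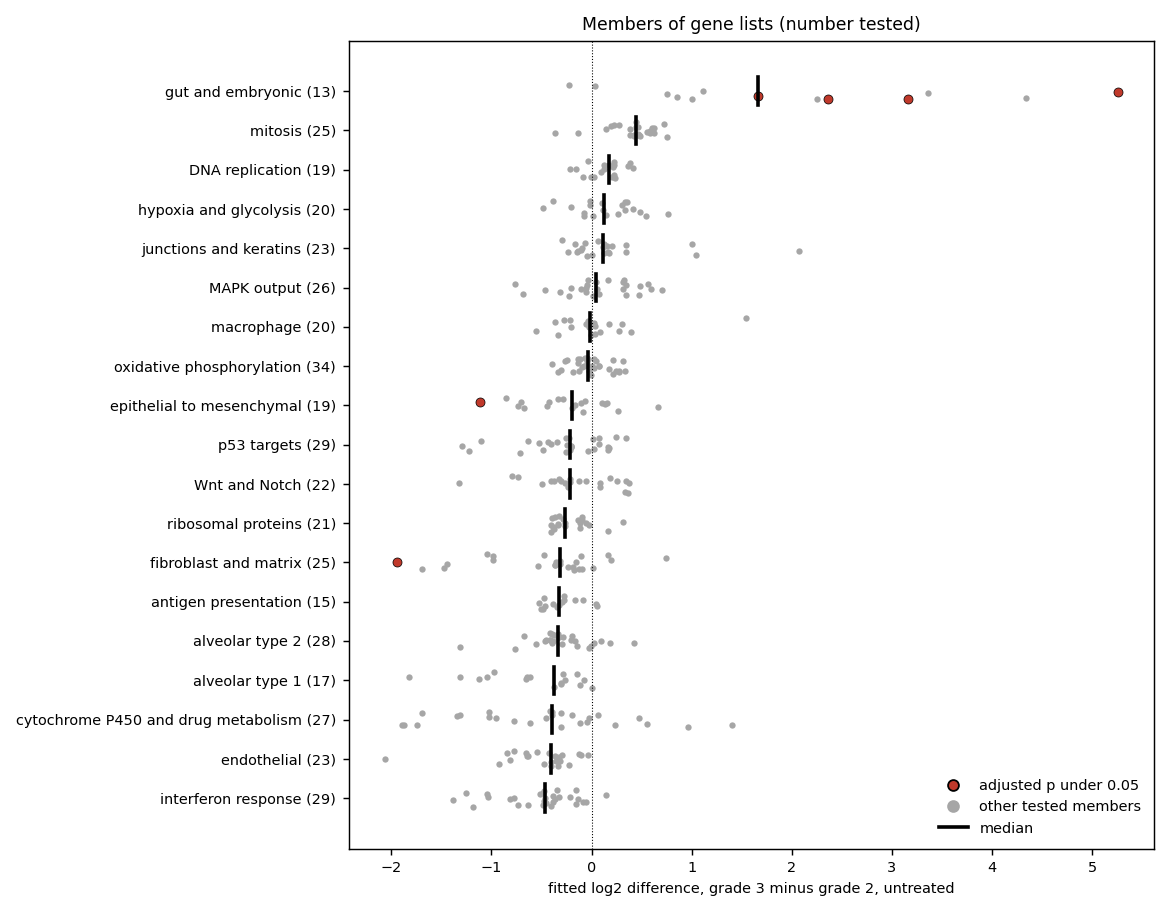
Fitted log2 difference, grade 3 minus grade 2 in untreated tumours (horizontal axis), of the tested members of 19 gene lists (1 row per list, number tested in brackets). Red points passed an adjusted p of 0.05 with limma, grey points did not, and black bars are list medians, from 1.66 for gut and embryonic to -0.47 for interferon response.

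Markers of the alveolar epithelium had differences mostly below 0, and no member passed. Of 28 tested alveolar type 2 markers 0 passed (0.178% of all genes), 5 were lower and 0 higher at an unadjusted p under 0.05 (6.7% and 5.77% of all genes, as for the lists that follow), and the median difference was -0.33 against 0.00 over all genes. Sftpc, the surfactant protein that defines the cell type, was 12.31, 12.76, 13.07 and 12.82 in grade 3 and 13.26, 13.23, 12.68 and 13.41 in grade 2, an overlapping pattern with a difference of -0.41 (SE 0.23, limma adjusted p = 0.464). Lyz2, a lysozyme of alveolar type 2 cells and macrophages, had -0.55 (limma adjusted p = 0.295), without overlap between the grades.

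For alveolar type 1 cells, the flat cells of gas exchange, 0 of 17 tested markers passed, 6 were lower and 0 higher at an unadjusted p under 0.05, and 16 of 17 differences were below 0, with a median of -0.37. Sema3e, an axon and vessel guidance factor, was 7.88, 8.66, 7.97 and 7.68 in grade 3 and 8.93, 9.34, 9.23 and 9.30 in grade 2. Its grades did not overlap and its difference was -1.05 (SE 0.25, limma adjusted p = 0.116). Hopx, a transcriptional cofactor of alveolar cells, had -0.65 (limma adjusted p = 0.182), also without overlap. The mean of the 17 markers was 9.48 to 9.97 in grade 3 and 10.15 to 10.53 in grade 2, and the grade 3 tumour of mouse 8565 was the highest of its group. In tissue pieces, fewer cells of a type and less RNA per cell cannot be told apart.

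Among 14 club and ciliated cell genes on the array 8 were tested and 0 passed, with 7 differences below 0, 1 above and a median of -0.68. The 1 above 0 was Scgb3a1, a secretoglobin of airway secretory cells, which was 9.81, 10.01, 8.42 and 10.05 in grade 3 and 9.11, 9.05, 7.78 and 7.49 in grade 2 (difference 1.43, limma adjusted p = 0.207), while Tppp3, a tubulin-binding protein of ciliated cells, had -1.24 and Cbr2, a carbonyl reductase of club cells, -0.75 (limma adjusted p = 0.203 and 0.249). No neuroendocrine or basal cell gene reached the filter among 13 on the array. Of 18 tested genes of the lung lineage regulator list, the 1 that passed was Hnf4a, which is also counted in the gut and embryonic list. The median of the 18 was -0.23.

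Genes of cell division had differences mostly above 0, and no member passed. Of 44 mitotic genes on the array 25 were tested, 0 passed, 6 were higher and 0 lower at an unadjusted p under 0.05 (5.77% and 6.7% of all genes), and 23 of the 25 differences were above 0 with a median of 0.45. The list mean differed between mice within a grade. It was 5.68 in the grade 3 tumour 8584T3, as low as the 5.67 and 5.78 of the grade 2 tumours of mouse 8700, and was 6.71, 6.61 and 7.07 in the other grade 3 tumours against 6.41 and 6.34 in the grade 2 tumours of mouse 8565. Mki67, the standard proliferation marker, was 8.06, 9.57, 9.20 and 9.72 in grade 3 and 8.12, 8.32, 9.02 and 9.17 in grade 2 (difference 0.44, SE 0.35, limma adjusted p = 0.591). Anln, which encodes anillin of the cytokinetic ring, was the 1 tested mitotic gene whose grades did not overlap, at 0.61 (limma adjusted p = 0.233). Of all genes tested, 3.42% lay apart with grade 3 higher, so 1 such gene among 25 is no trait of the list. Of 19 tested DNA replication genes 0 passed and the median was 0.17.

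**Figure D3:**
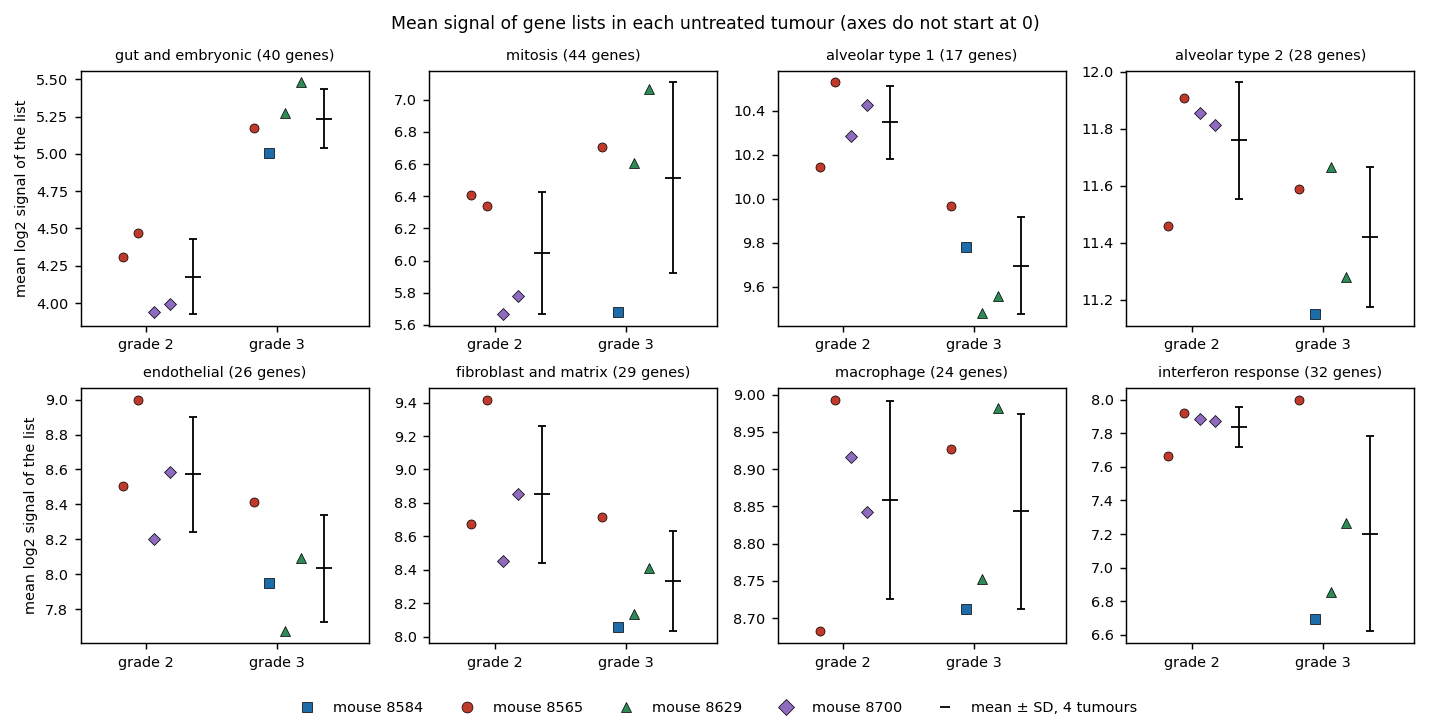
Mean log2 signal of 8 gene lists (all their genes on the array, number in brackets) in each untreated tumour, by grade, with shape and colour for the mouse and mean ± SD over 4 tumours. The grades are apart for gut and embryonic and for alveolar type 1 genes and overlap for the others; vertical axes do not start at 0 and differ between panels.

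Genes around p53 were examined with p53 not restored in either grade. Cdkn1a, the gene of the cell cycle inhibitor p21, was 10.40, 9.0, 9.34 and 9.19 in grade 3 and 10.80, 10.63, 9.02 and 8.88 in grade 2. It was high in 8584T3 and in both tumours of mouse 8700 and lower in all tumours of mice 8565 and 8629, and its difference between grades was -0.26 (SE 0.39, limma adjusted p = 0.811). Mdm2, the ubiquitin ligase that restrains p53, had -0.21 (limma adjusted p = 0.626). Of 29 tested p53 target genes 0 passed, 6 were lower and 0 higher at an unadjusted p under 0.05, and the median was -0.21. The mean of the targets was 8.60 and 8.54 in mouse 8700 and between 8.02 and 8.15 in the other 6 tumours, so within mouse 8565 the grades lay close together (8.07 in grade 3, 8.10 and 8.10 in grade 2). Plk2, a polo-like kinase gene induced by p53, was 6.36, 7.37, 6.91 and 6.77 in grade 3 and 8.45, 8.59, 7.75 and 7.63 in grade 2 (difference -1.11, limma adjusted p = 0.137). The restored gene itself is not reported here.

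Cdkn2a, the source of ARF and of the inhibitor p16, lay below the array median in all 8 tumours and was not tested. Its signals were 5.51, 4.95, 5.82 and 5.82 in grade 3 and 4.44, 3.71, 4.56 and 4.25 in grade 2, so every grade 3 tumour was higher, with means of 5.53 ± 0.41 (SD, n = 4) and 4.24 ± 0.37 (SD, n = 4). Of 17 tested regulators of Cdkn2a and the RB pathway 0 passed, and the mean of the 23 on the array was 7.62 to 7.69 in grade 3 and 7.71 to 7.75 in grade 2. Tbx2 and Tbx3, 2 T-box genes, had differences of -0.78 and -1.28 (limma adjusted p = 0.182 and 0.241), and Ezh2, the methyltransferase of the polycomb complex, had 0.52 (limma adjusted p = 0.256). In all 3, named for the smallest p of the list, the grades did not overlap. Of the 17, 1 lay apart with grade 3 higher and 3 with grade 3 lower (3.42% and 3.03% of all genes tested).

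Readouts of oncogenic signalling through the MAP kinase pathway had small differences. Of 26 tested MAPK output genes 0 passed, 3 were higher and 1 lower at an unadjusted p under 0.05, and the median was 0.05. The mean over the 31 genes on the array was 8.50 to 8.74 in grade 3 and 8.34 to 8.48 in grade 2, without overlap. This mean takes in 5 untested genes and was not itself tested. Dusp6, a phosphatase that reports ERK activity, was 11.19, 11.14, 11.19 and 11.54 in grade 3 and 11.34, 11.39, 11.29 and 11.36 in grade 2, with a difference of -0.10 (95% interval -0.35 to 0.15, limma adjusted p = 0.737). Ereg, an EGF receptor ligand, had 0.70 and Tgfa, another ligand, 0.47 (limma adjusted p = 0.377 and 0.303), while Egr1, an immediate early transcription factor, had -0.69 (limma adjusted p = 0.339). Of 18 tested immediate early genes 0 passed, 4 were lower at an unadjusted p under 0.05 and the median was -0.22. Of 22 tested Wnt and Notch genes 0 passed, with a median of -0.21 and a mean over the 32 on the array of 7.02 to 7.12 in grade 3 and 7.17 to 7.30 in grade 2, without overlap. That mean takes in 10 untested genes and was not tested either. In this list Fzd2, a Wnt receptor, had -1.32 and Axin2, a feedback target of Wnt signalling, -0.79 (limma adjusted p = 0.137 and 0.247), both without overlap.

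Cell junctions and the matrix were read from 3 lists. Of 23 tested junction and keratin genes 0 passed, 4 were higher and 0 lower at an unadjusted p under 0.05 (5.77% and 6.7% of all genes), and the median was 0.12. The mean over the 30 on the array was 8.71 to 8.91 in grade 3 and 8.35 to 8.46 in grade 2, without overlap. It takes in 7 untested genes, and Dsc2, Dsg2 and Cldn2, whose differences were well above the list median. List means were not tested. That of erythroid and platelet genes lay apart too, at 4.47 to 5.01 in grade 3 and 5.03 to 5.16 in grade 2. The desmosomal cadherin Dsc2 was 6.49, 6.24, 6.87 and 5.82 in grade 3 and 3.57, 3.66, 4.19 and 5.29 in grade 2, with a difference of 2.07 (SE 0.43) just short of the threshold (limma adjusted p = 0.0604), and its partner Dsg2 had 1.04 (limma adjusted p = 0.295). Both were without overlap. Of 19 tested genes of the epithelial to mesenchymal transition Tgfb2 was the 1 that passed, 8 were lower and 1 higher at an unadjusted p under 0.05, and the median was -0.20.

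Of 32 tested integrin, laminin and invasion genes 0 passed and the median was 0.00. Mmp12, a macrophage elastase, was 9.46, 10.95, 10.42 and 11.28 in grade 3 and 9.82, 8.85, 9.07 and 8.50 in grade 2, with 1.54 (SE 0.40, limma adjusted p = 0.137), and the grade 3 tumour 8584T3 lay inside the grade 2 range. Macrophage genes as a list were even: of 20 tested 0 passed and the median was -0.01, with list means of 8.71 to 8.98 in grade 3 and 8.68 to 8.99 in grade 2. Mmp14, a membrane-bound matrix protease, had 0.66 and the laminin chain Lama3 -0.64 (limma adjusted p = 0.182 and 0.286), both without overlap.

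Genes of foreign compound metabolism, a function of club and alveolar cells, had differences mostly below 0. Of 27 tested 0 passed, 7 were lower and 2 higher at an unadjusted p under 0.05, and the median was -0.40. Ephx1, an epoxide hydrolase, was 7.61, 7.98, 7.49 and 6.48 in grade 3 and 9.87, 10.21, 8.36 and 8.88 in grade 2 (difference -1.70, limma adjusted p = 0.137), highest in mouse 8700. Cyp4b1, a lung cytochrome P450, had -1.74 (limma adjusted p = 0.170). Adh1, an alcohol dehydrogenase, had -1.34 (limma adjusted p = 0.162) but -0.04 within mouse 8565, where the grade 3 tumour at 9.55 lay between its grade 2 tumours at 9.21 and 9.97. Of 20 tested hypoxia and glycolysis genes 0 passed and the median was 0.13, with a mean over the 25 on the array of 9.08 to 9.36 in grade 3 and 8.82 to 9.07 in grade 2. The glycolytic enzyme gene Pgk1 had 0.54 (limma adjusted p = 0.286). Oxidative phosphorylation, with 34 tested genes, had a median of -0.04, and 21 tested ribosomal protein genes had -0.26, both with 0 genes that passed or had an unadjusted p under 0.05.

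In interferon response genes the comparison over all tumours and that within a mouse had opposite signs. Of 29 tested 0 passed, 9 were lower and 0 higher at an unadjusted p under 0.05, and 28 of the 29 differences were below 0 with a median of -0.47. Within mouse 8565, 21 of the 29 were above 0 and the median was 0.11. Ifit3, an interferon-induced RNA-binding protein, was 7.05, 8.61, 6.43 and 7.32 in grade 3 and 9.55, 9.42, 8.30 and 8.91 in grade 2. Its difference was -1.39 (SE 0.35, limma adjusted p = 0.137) and, within mouse 8565, 0.01. The list mean was 8.0 in the grade 3 tumour of mouse 8565, above all 4 grade 2 tumours (7.66 to 7.92), and 6.69, 6.85 and 7.26 in the grade 3 tumours of mice 8584 and 8629, which had no grade 2 tumour to compare. For these genes animal and grade cannot be told apart. Of 15 tested antigen presentation genes 0 passed and the median was -0.32, with 0.01 within mouse 8565.

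Markers of other cells in the tissue were measured beside these genes. Of 23 tested endothelial genes 0 passed, 9 were lower and 0 higher at an unadjusted p under 0.05, and all 23 differences were below 0 with a median of -0.41. Their mean was 7.67 to 8.41 in grade 3 and 8.20 to 9.0 in grade 2, so the grades overlapped. The adhesion molecule gene Pecam1 had -0.64, Icam2 -0.92 and the VEGF receptor gene Kdr -0.66 (limma adjusted p = 0.204, 0.207 and 0.232). Of 25 tested fibroblast and matrix genes Fbln1 was the 1 that passed, 8 were lower and 0 higher at an unadjusted p under 0.05, the median was -0.32, and the mean of the 29 on the array was 8.06 to 8.72 in grade 3 and 8.45 to 9.42 in grade 2. The fall of Fbln1 thus stood beside lower values of other stromal genes, and their part in it was not tested.

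Lymphocyte genes were low. Of 9 tested T and NK cell genes 0 passed and the median was -0.31. Of 20 such genes on the array the mean was 4.63 to 5.71 in grade 3 and 5.27 to 5.90 in grade 2, near or below the array medians, as were the 11 B and plasma cell genes with 4.99 to 6.75 and 5.29 to 6.68.

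The last question was whether the grade difference was the same where p53 had been restored. In the 10 treated tumours 0 of 7300 genes passed for a difference between grades (0%, limma), with 141 genes, or 1.93%, at an unadjusted p under 0.05. All but 1 of those tumours came from mouse 8688. The gap between 3′ and 5′ control probe sets was 2.62 in the grade 3 tumour 8688T3 and 1.85 in the grade 2 tumour 8639T4. It was 0.63 to 0.86 in the other treated tumours. A test of the difference between both grade comparisons, the interaction of grade and treatment, passed for 0 genes (0%; 665 genes, or 9.11%, at an unadjusted p under 0.05). The 13 genes were chosen for their difference in untreated tumours, so smaller values in treated tumours are a description. Muc5b differed by 0.25 (SE 0.34) between treated grades, with an interaction of 2.92 (SE 0.53, limma adjusted p = 0.127). Afp differed by -0.33 (SE 0.30) and had an interaction of 2.69 (SE 0.48, limma adjusted p = 0.127). Its levels in treated tumours, 8.23 ± 0.57 (SD, n = 6) in grade 3 and 8.45 ± 0.77 (SD, n = 4) in grade 2, were near those of untreated grade 3 tumours. Muc5b, in contrast, was 3.78 ± 0.75 (SD, n = 6) and 3.55 ± 0.12 (SD, n = 4), near untreated grade 2.

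Hnf4a had the largest treated difference of the 13, at 1.77 (SE 0.66), with treated means of 5.03 ± 1.33 (SD, n = 6) in grade 3 and 3.22 ± 0.46 (SD, n = 4) in grade 2, and an interaction of 3.48 (SE 1.05, limma adjusted p = 0.539). Lgals4 had 0.12 and Fbln1 0.11 between treated grades, with interactions of 1.54 and -2.06 (limma adjusted p = 0.315 for both). The treated tumours came from 2 other mice, so restoration cannot be told apart from animal here.

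**Figure D4:**
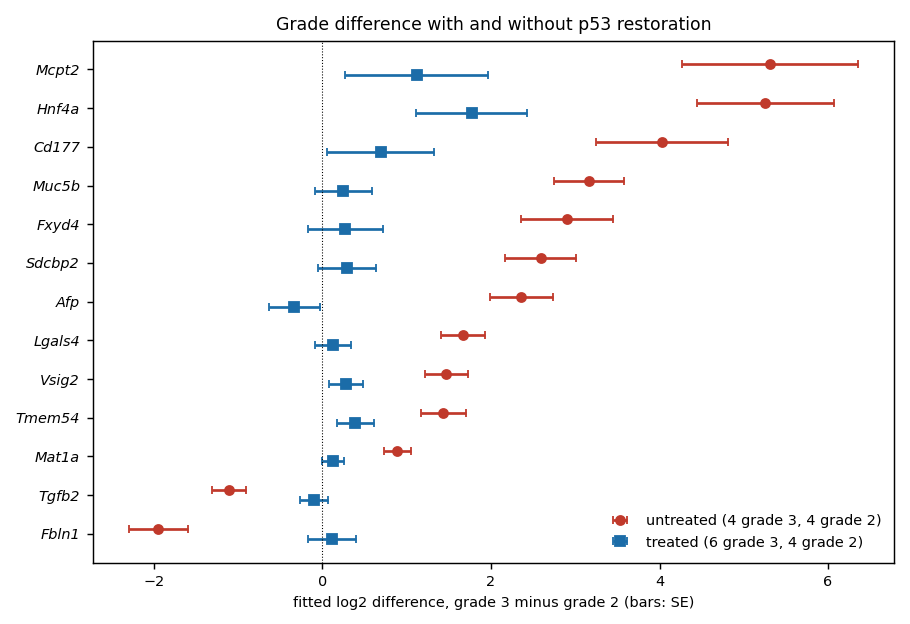
Fitted log2 difference, grade 3 minus grade 2 (horizontal axis, bars are SE), of the 13 genes that passed in untreated tumours, shown for untreated (red circles, 4 and 4 tumours) and treated tumours (blue squares, 6 and 4 tumours). Blue squares lie between -0.33 (Afp) and 1.77 (Hnf4a) and, gene by gene, nearer to 0 than the red circles, by which the genes were chosen.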

How the data were processed

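Biotin-labelled cDNA was made from total RNA of each tumour and read on single-colour arrays, per the protocols in the labels. Values are log2 signals per probe set as the authors deposited them, and the submitters' processing notes name GCRMA 2.20.0 and R 2.11.0. That method normalises arrays to each other, which removes differences in total RNA. No source used here gives scan dates or other batches.

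Of 22690 probe sets, 20380 carried 1 gene symbol, 691 several and 1555 none, and 64 were controls. Only those with 1 symbol were used. Each of 12393 genes was read from the brightest of its probe sets, by the mean of 18 tumours, and 7300 genes that exceeded the array median in 4 or more tumours were tested. limma 3.58.1 in R 4.3.3 fitted 4 group means to all 18 tumours with mouse as a random block (correlation 0.259, 14 residual and 3.8 prior degrees of freedom), with Benjamini-Hochberg adjustment over all 7300 genes and a threshold of 0.05. Because of the block, a fitted difference need not equal the difference of the 2 group means. Values within mouse 8565 are its grade 3 tumour minus the mean of its 2 grade 2 tumours.

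The genes, the 36 gene lists and the tests were chosen with earlier results of these data known. Named genes were those that passed, a fixed set of 9 p53, lineage and growth genes, of which 1 was not measured, and per list up to 4 that passed or else up to 3 with the smallest p. The text names part of the genes that this rule allows, and not all results are reported here. Cdkn2a and Nkx2-1 are of the fixed set; Gkn2, Dlk1, Ctse, Gzme and the untested genes named with values were chosen after their values were seen. Alternatives were no mouse term, mouse as a fixed block, mouse means, only the untreated tumours, 2 further normalizations, 3 filters, averaging all probe sets of a gene, another spread model, array weights and leaving out each tumour or mouse. Leaving out 2 treated tumours with a 3′ excess and the interaction were added after seeing the data.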

Additional observations from a re-analysis of the deposited data

Results flagged for a closer look

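Of 156 sets of 4 tumours checked (1 gene or 1 list mean in 1 grade each), 6 held a tumour far from the other 3. Chance gives about 1 in 20 such sets. In grade 3, 8629T12 stood above the others for Anln, with 8.0957 against 7.43 to 7.49, and for Dusp6, with 11.5397 against 11.14 to 11.19. The grade 3 tumour 8584T3 had 11.9732 for Lyz2, against 12.48 to 12.50. For Psmb8, a subunit of the immunoproteasome, 8565T1 had 8.2936 against 7.91 to 7.96. For Scgb3a1, 8629T10 had 8.4228 against 9.81 to 10.05. In grade 2, 8565T4 had 5.1467 for Tmem54 against 5.73 to 5.82, and leaving it out ended the call of that gene.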

How the results depend on the processing

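All genes that passed kept their direction under each alternative in which they were tested. Against the 13 genes reported, 2 passed with only the 8 untreated tumours fitted, 111 with no mouse term (55 higher, 56 lower), 29 with no filter (groups that do not overlap then numbered 864 genes, against 471), 22 with a floor of log2 5, and 192 with array weights (106 higher, 86 lower). None passed with mouse as a fixed block, where the comparison rests on mouse 8565 (183 at an unadjusted p under 0.05), or with 1 mean per mouse and group (468). Centring arrays on their median gave 16, 11 of them higher and 5 lower. Leaving out the 2 treated tumours with a 3′ excess also gave 16, 13 higher and 3 lower. Leaving out 1 tumour gave from 2 to 98 genes, and leaving out mouse 8565 gave 6, mouse 8584 24, mouse 8629 3 and mouse 8700 0. The interaction passed for 38 genes with array weights, for 0 to 14 when 1 tumour was left out, for 3 without mouse 8565, for 1 without mouse 8629, and for 0 in the other settings. Reversed were Cdkn1a with the fixed block (0.0519) and without mouse 8700 (0.41), and, with the fixed block, Ifit3 (0.00787) and Oasl2, another interferon response gene (0.0415). The 3 values with the fixed block are the differences within mouse 8565. Leaving out mouse 8700 takes away its grade 2 Cdkn1a signals of 10.80 and 10.63. Why the mice differed was not tested. Of 875 list medians recomputed, 45 moved by 1 SD or more. With the fixed block the gut and embryonic median was 0.63, and with no filter 0.76.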

Other observations

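The further groups of genes given here had list medians from -0.09 to 0.10. Of 14 tested sterol synthesis genes 0 passed in limma, none had an unadjusted p under 0.05, and the median difference was -0.03. Of 24 tested lipid and fatty acid genes 0 passed, 2 were lower at an unadjusted p under 0.05, and the median was 0.01. In that list Fads2, a fatty acid desaturase, was 6.48, 8.27, 7.19 and 7.60 in the grade 3 tumours 8584T3, 8565T1, 8629T10 and 8629T12 and 8.45, 8.53, 8.15 and 9.03 in the grade 2 tumours 8700T1, 8700T3, 8565T3 and 8565T4 (difference -1.04, SE 0.29, limma adjusted p = 0.177). Of 22 tested genes of glutathione metabolism and the NRF2 response 0 passed, 1 was higher and 2 were lower at an unadjusted p under 0.05, and the median was -0.06. Of 21 tested unfolded protein response genes 0 passed and the median was 0.10, and of 15 tested EGF receptor family genes 0 passed and the median was 0.00. Of 25 tested genes of secreted factors and senescence 0 passed, and 2 were higher and 5 lower at an unadjusted p under 0.05 (5.77% and 6.7% of all genes). The median was -0.09, and single differences ran from -1.82 to 1.84. Their mean over the list was 6.78 to 7.86 in grade 3 and 6.95 to 7.35 in grade 2, a wider spread in grade 3.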
